A study of Mus musculus with 8 samples.

Results

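CD8-negative T cells of MC38 tumors were described here, and they numbered 152 of the 9886 cells within the limits on genes, UMIs and mitochondrial share. A UMI (unique molecular identifier) marks 1 captured transcript, so counts below are counts of transcripts and not of amplified reads. Members were chosen by their own UMI counts, and the name stands for this gate, since a T cell identity was not shown for every member. A member had at least 2 UMIs of Cd3d, Cd3e and Cd3g together, 0 of Cd8a and Cd8b1, 0 of the natural killer (NK) receptor genes Ncr1, Klre1 and Klrb1c, and at most 4 of the complement genes C1qa, C1qb and C1qc, which mark macrophages. The steps left 627 cells with enough CD3 UMIs, then 321 without CD8, 180 without the NK genes and finally the 152 members. The same gate with at least 1 CD8 UMI gave 179 CD8 T cells, used below for comparison.

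The tumors were grown under the skin of C57BL/6 mice from MC38, a mouse colon carcinoma line, and were taken 24 h after injection. The study's methods give 8-week-old female C57BL/6J mice for in vivo work, without naming the strain or age for these 8 tumors. The study compared 3 treatments: saline (3 tumors), free R848, a small-molecule agonist of Toll-like receptors 7 and 8 (3 tumors), and medium R848-BPD, in which R848 is attached to a bottlebrush polymer by a linker of medium release rate (2 tumors). Libraries were made by Seq-Well, in which each cell shares a small well with a barcoded bead, from a mix of 9 bead-separated CD45+ (immune) cells to 1 CD45- cell, so shares of all cells reflect this mixing. No dose or batch was given in the labels for these samples, and all groups carried the same implanted line with no other treatment named.

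T cells that lack CD8 fall into several lineages. CD4 helper cells read peptides on MHC class II and help other immune cells through cytokines and surface ligands. Regulatory T cells are a CD4 lineage set by the transcription factor Foxp3, carry high CD25 (Il2ra) and CTLA-4, and restrain other T cells, also inside tumors. Gamma-delta T cells use another T cell receptor (TCR), mostly carry neither CD4 nor CD8, and include cells poised to make IL-17.

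The saline tumors held 26, 7 and 23 members, the free R848 tumors 8, 15 and 26, and the medium R848-BPD tumors 32 and 15. Members had a median of 3996 UMIs, with medians by tumor from 2706 to 6037, against 4616 in CD8 T cells. None of the 152 was among the 100 cells that Scrublet marked as doublets, and none carried 1 of the 23 barcodes that occurred in more than 1 library. At the edges of the gate, 26 members had exactly 2 CD3 UMIs and 63 cells just outside had 1. A further 21 cells were kept out by a single CD8 UMI and 35 by a single NK receptor UMI. For C1q, 132 members had 0 UMIs and 1 had 4, the limit, while 2 cells just outside had 5. A missing CD8 UMI at this depth does not show that the gene was silent.

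Measured genes split the members into 4 kinds that the gate had not used. Foxp3 (chrX:7573644-7595245 in GRCm38, plus strand) had a UMI in 34 members, 22.4% (exact 95% binomial interval 16.0 to 29.8%). Cd4 (chr6:124864692-124888221, minus strand), the class II co-receptor, had one in 47. Both were found in 29 cells, and 52 members (34.2%) had either. The constant genes of the TCR gamma chain, Tcrg-C1, Tcrg-C2 and Tcrg-C4 on chromosome 13, had a UMI in 35 members (interval 16.6 to 30.5%), and 0 of these had a UMI of Foxp3 or Cd4. The other 65 members (42.8%, interval 34.8 to 51.0%) had none of these genes. These intervals cover counting error only.

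In macrophages and MC38 cells these genes were found in far smaller shares, while free RNA itself was not measured. Among 3796 macrophages (at least 10 C1q UMIs and no CD3 UMI, median 5835.5 UMIs), Foxp3 had a UMI in 3, Cd4 in 38 and Tcrg-C in 1. Among 1330 MC38 cells (at least 2 UMIs of Rhox5, none of Ptprc or CD3), which were deeper still at a median of 11566.5 UMIs, the counts were 6, 2 and 0. In CD8 T cells Foxp3 had a UMI in 7 of 179 and Cd4 in 10. Tcrg-C was found in 27 of the 179 CD8 T cells (15.1%), so a Tcrg-C UMI alone does not mark a gamma-delta T cell, and the delta constant gene was not analysed here.

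The label was checked against TCR genes and markers of each lineage. A UMI of the alpha or beta constant genes (Trac, Trbc1, Trbc2) was found in 127 of 152 members (83.6%), and 25 had none. By kind, such a UMI was present in 29 of 34 Foxp3-positive cells, 15 of 18 cells with Cd4 and without Foxp3, 31 of 35 Tcrg-C-positive cells and 52 of the 65 others. Besides the CD3 UMIs of the gate, 83.6% of the members thus had a TCR transcript. Cells kept out only by 1 or 2 NK receptor UMIs had one in 88.6% of 35 and 100% of 18 cells. This check therefore does not tell members from the cells that the NK step kept out. The CD4 lineage was shown by a UMI of Foxp3 or Cd4 in 34.2% and not shown for the remainder.

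**Figure D1:**
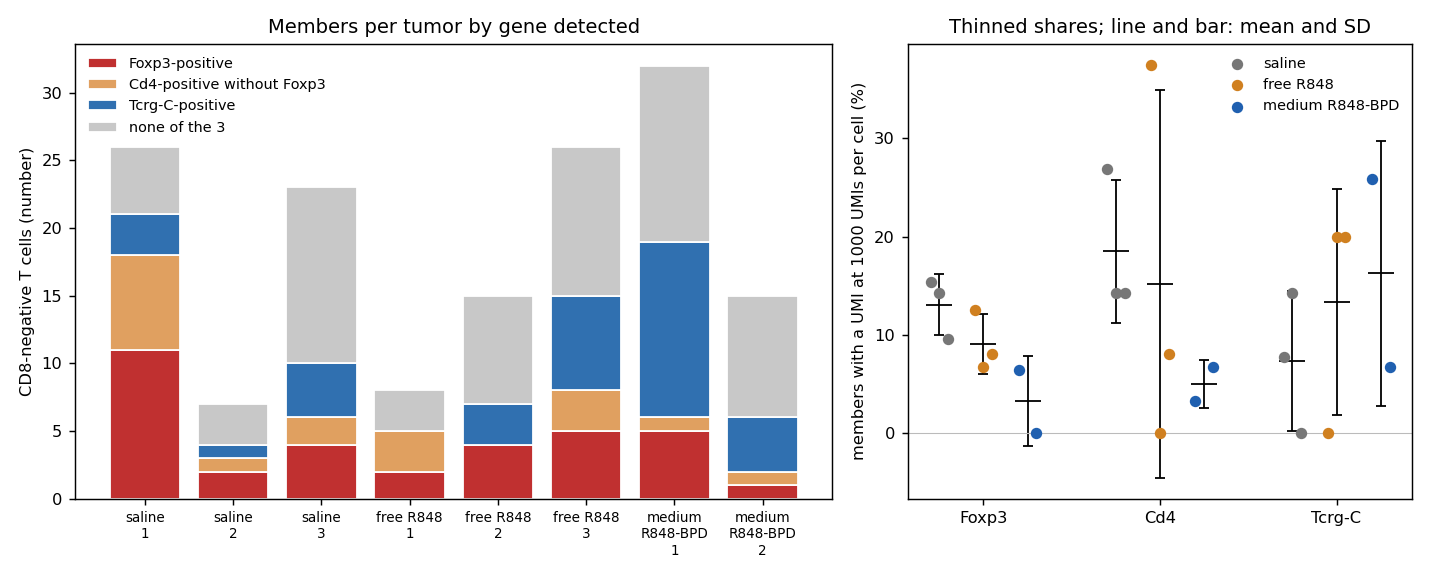
Left, number of CD8-negative T cells in each tumor (x axis), stacked by the gene with a UMI. Right, percentage of members with a UMI after thinning every cell to 1000 UMIs, 1 point per tumor, with the group mean and SD; the medium R848-BPD tumors lie lowest for Foxp3 and the groups overlap for Tcrg-C.

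The Foxp3-positive cells looked alike in their surface receptors. All 34 had a UMI of Tnfrsf4 (OX40, a costimulatory receptor), 33 had Tnfrsf18 (GITR), 33 had Icos, 31 had Il2ra, 31 had the transcription factor gene Ikzf2 (Helios) and 21 had Ctla4. Of the 18 cells with Cd4 and without Foxp3, 14 had Tnfrsf4, 13 had Il2ra and 11 had Ctla4. Cd40lg, the helper ligand CD40L, was found in 3 of these 18 cells and in 0 of the 34 Foxp3-positive cells. Tnfrsf4 was rare elsewhere, with a UMI in 2 of 35 Tcrg-C-positive cells and 3 of the 65 others. Since Foxp3 and Cd4 were each read at a few UMIs per cell (34 positive cells held 93 UMIs of Foxp3), a missing UMI does not show that a cell lacked them.

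The Tcrg-C-positive cells carried other genes. Cd163l1 (SCART1, a scavenger receptor known from gamma-delta T cells that make IL-17) had a UMI in 16 of 35 of them, in 6 of the 65 others, in 1 of the 18 and in 0 of the Foxp3-positive cells. The variable gene Trdv4 was found in 7 of the 35 and in 3 of the 65, and Zbtb16 (PLZF, a factor of innate-like T cells) in 6 and 3. The kinase gene Blk was in 8 of the 35, and Il17a in 4 of them. In CD8 T cells, macrophages and MC38 cells Cd163l1 had a UMI in 4 of 179, 2 of 3796 and 0 of 1330. Saa3, an acute-phase gene, had UMIs in 8 of the 35 (22.9%), against 7.82% of CD8 T cells, 21.6% of macrophages and 19.5% of MC38 cells, and the part of free RNA in it was not tested. Of its 136 UMIs in members, 112 came from 1 cell of medium R848-BPD tumor 2, where macrophages held 15151 CPM (UMIs of a gene scaled to a common total per library), and the medium R848-BPD tumors gave 13 and 4 of the 35 cells.

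Among the 65 cells with none of the 3 genes, Klra7 and Klra1 (Ly49 receptors) had a UMI in 26 and 24, and Xcl1 (a chemokine of NK and CD8 T cells) in 27. Each of these was found in 7 of the 35 Tcrg-C-positive cells and in 0 of the 52 cells with Foxp3 or Cd4. In macrophages the shares were 0.659% for Klra7, 0.316% for Klra1 and 1.24% for Xcl1, and in CD8 T cells 11.7, 3.35 and 22.3%. Nkg7, a granule protein, had a UMI in 44 of the 65 (67.7%), 14 of the 35, 6 of the 18 and 10 of the 34 Foxp3-positive cells, against 87.7% of CD8 T cells and 2.19% of macrophages. Gzmc (granzyme C) was in 25 of the 65 (38.5%), 5 of the 35, 3 of the 18 and 3 of the 34, against 38.5% of CD8 T cells, 8.01% of macrophages and 8.12% of MC38 cells. These genes were chosen with their values in view. Gzmd, another granzyme, rested on a single cell of saline tumor 3, which held 137 of the 152 UMIs counted in all members. So 65 of the 152 members passed the gate without a UMI of Foxp3, Cd4 or Tcrg-C, and part of them carried Ly49 receptor genes, which NK cells also use, at larger shares than CD8 T cells. A TCR constant UMI was present in 52 of the 65, and it was no rarer in cells kept out by 1 or 2 NK receptor UMIs. The other 13 rested on CD3 UMIs alone, and some of the 65 may not be T cells. These splits describe cells pooled over tumors and no test was made on them.

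**Figure D2:**
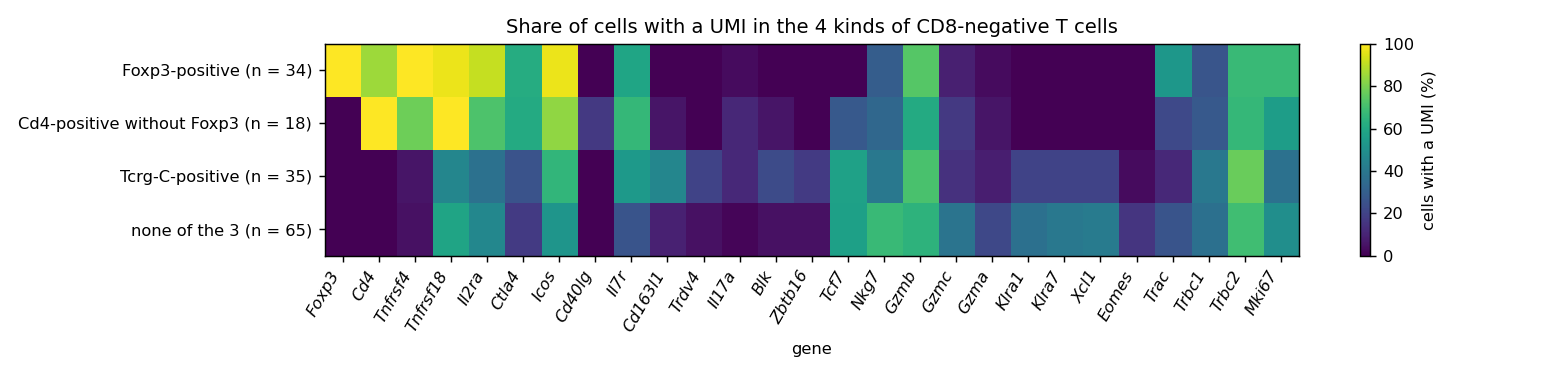
Share of cells with at least 1 UMI (colour, 0 to 100%) for 27 genes in the 4 kinds of CD8-negative T cells, pooled over the 8 tumors. Tnfrsf4 is seen in the 2 upper rows, Cd163l1 mainly in the Tcrg-C row, and Klra1, Klra7 and Xcl1 in the 2 lower rows.

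Mki67 or Top2a, genes of dividing cells, had a UMI in 93 of 152 members (61.2%), against 139 of 179 CD8 T cells (77.7%), 1639 of 3796 macrophages (43.2%) and 1061 of 1330 MC38 cells (79.8%). With every cell thinned to 1000 UMIs the shares were 42.6% of members, 55.3% of CD8 T cells, 19.5% of macrophages and 50.3% of MC38 cells. These shares pool tumors and were not tested, and the part of free RNA in them was not tested. Mki67 was found in 23 of the 34 Foxp3-positive cells and in 13 of the 35 Tcrg-C-positive cells.

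Next, CD8-negative and CD8 T cells of the same tumor were compared. Counts were summed per tumor and class in the 5 tumors with at least 10 cells of both, and tested with edgeR's quasi-likelihood test with the tumor as a block, after the 11 gate genes had been left out. Of 2124 genes, 16 (0.753%) passed an adjusted p of 0.05, 13 higher in CD8-negative T cells (0.612%) and 3 lower (0.141%). The 13 genes higher were Cd4, Il2ra, Tnfrsf4, Icos, the chemokine receptor gene Ccr2, the transcription factor genes Rora, Ikzf3 and Nr4a1, the cyclin gene Ccnd2, the nuclear lamina gene Lmna, Capg, Ier5 and Zfp36l1. The genes lower were Nkg7, the lymph node homing receptor gene Ccr7 and Trbc2.

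Levels are given as CPM of the summed cells, and differences as log2 ratios with the standard error. Ccr2, which guides cells to inflamed tissue, was at 501 and 473 CPM in saline tumors 1 and 3, 472 and 511 in free R848 tumors 2 and 3, and 295 in medium R848-BPD tumor 1. In CD8 T cells of those tumors it was at 167, 236, 114, 96 and 75 CPM, lower in each. The log2 difference was 1.81 ± 0.24 (edgeR adjusted p = 0.000706), between 1.70 and 1.96 with each tumor left out.

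Il2ra, the interleukin-2 receptor alpha chain, stood at 1217 ± 361 CPM (SD, n = 5) against 404 ± 141 CPM. Its log2 difference was 1.60 ± 0.23 (edgeR adjusted p = 0.000865), and it was higher in all 5 tumors. Tnfrsf4 was at 529 ± 245 CPM against 162 ± 128 CPM (1.74 ± 0.26, adjusted p = 0.000945), and Icos at 890 ± 149 against 356 ± 193 CPM (1.40 ± 0.23, adjusted p = 0.0021). Cd4 itself was at 242 ± 117 CPM against 31.1 ± 58.9 CPM, 2.95 ± 0.47 on the log2 scale (adjusted p = 0.00163). In the CD8 gate Cd4 reached 136 CPM in saline tumor 1 and was at most 12 CPM in the other 4 tumors.

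Nkg7 was at 283 ± 90.9 CPM against 777 ± 286 CPM in CD8 T cells, a log2 difference of -1.48 ± 0.21 (edgeR adjusted p = 0.000865). Ccr7 was at 284 ± 161 against 798 ± 230 CPM (-1.50 ± 0.29, adjusted p = 0.0116). Trbc2, the TCR beta constant gene, differed by -1.08 ± 0.22 (adjusted p = 0.014). The calls of Nkg7, Ccr2 and Il2ra held with every tumor left out and in each of the 15 alternatives run. The calls of Ccr7 and Trbc2 were lost without saline tumor 1, saline tumor 3 or medium R848-BPD tumor 1, with log2 differences of -1.56, -1.22 and -1.48 for Ccr7 and -0.94, -1.15 and -0.94 for Trbc2. Among the genes higher, Rora was not called without saline tumor 3 (1.37), Ikzf3 and Zfp36l1 without saline tumor 1 or medium R848-BPD tumor 1 (1.16 to 1.41), and Ier5 without medium R848-BPD tumor 1 (1.20).

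By list, 5 of the 12 tested genes of the regulatory T cell list were higher and 0 lower (median log2 difference 0.92, against 0.0017 over all tested genes). The 5 were Il2ra, Tnfrsf4, Icos, Ikzf3 and Capg. Foxp3 did not pass the filter on low counts. Of the CD4 lineage list, 3 of 4 tested genes were higher. Of the cytotoxic list 1 of 12 tested (Nkg7) was lower and 0 higher. No gene of the type I interferon list (31 tested), interferon-gamma list (23) or cell cycle list (21) was called. Macrophage, dendritic cell and NK lists had 8, 3 and 1 tested genes and 0 calls, too few genes to read against the 0.753% called overall.

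**Figure D3:**
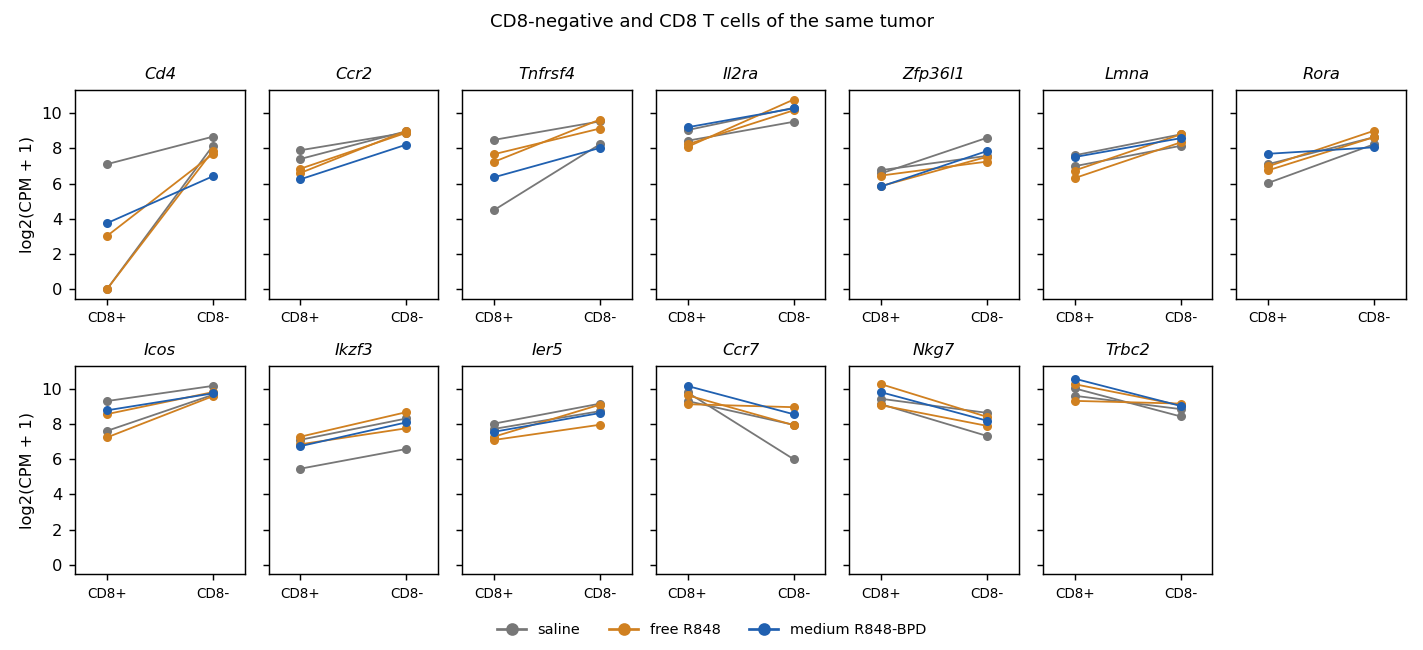
Levels of 13 genes chosen by the naming rule, as log2(CPM + 1), in CD8 T cells (left of each panel) and CD8-negative T cells (right) of the same 5 tumors, joined by lines and coloured by treatment. The 10 genes from Cd4 to Ier5 lie higher and Ccr7, Nkg7 and Trbc2 lower in CD8-negative T cells of every tumor.

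Foxp3-positive members were then compared with Foxp3-negative members within the 3 tumors that had at least 5 of both (saline tumor 1, free R848 tumor 3 and medium R848-BPD tumor 1). The test passed 14 of 1186 genes (1.18%), with 5 at a higher level (0.422%) and 9 at a lower one (0.759%) in Foxp3-positive cells. The genes higher were Tnfrsf4, Il2ra, Tnfrsf18, Tnfrsf9 (4-1BB) and Dusp4, a phosphatase of the MAP kinase pathway. The genes lower included Emb, an adhesion protein, Tmem176b, Ctsw, a protease of cytotoxic cells, and Ly6c2. The Foxp3-negative sums hold the Tcrg-C-positive cells and the cells with none of the 3 genes, and a Foxp3 UMI was more often found in deeper cells (median 5085 UMIs against 3996 in all members).

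Tnfrsf4 was at 1152, 1573 and 1366 CPM in Foxp3-positive cells of the saline, free R848 and medium R848-BPD tumor, against 313, 48.3 and 7.6 CPM in the Foxp3-negative cells. The log2 difference was 4.02 ± 0.76 (edgeR adjusted p = 0.0393). Il2ra was at 2652 ± 504 CPM (SD, n = 3) against 505 ± 267 CPM, 2.46 ± 0.32 (adjusted p = 0.00623). Tnfrsf18 stood at 1664 ± 504 against 429 ± 213 CPM (2.04 ± 0.36, adjusted p = 0.0363). The groups did not overlap for these genes in the 3 tumors.

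Emb was at 69.8, 140 and 32.5 CPM in Foxp3-positive cells against 800, 1482 and 1109 CPM, a log2 difference of -3.78 ± 0.46 (edgeR adjusted p = 0.00623). Tmem176b, a membrane protein gene also used by type 17 T cells, was at 17.4, 0 and 0 CPM against 278, 596 and 494 CPM (-5.31 ± 0.77, adjusted p = 0.00885). Ly6c2, for which near-identical Ly6c1 on the same chromosome can share reads, was at 174, 0 and 0 CPM against 765, 1128 and 486 CPM (adjusted p = 0.0398). Apoe, a gene of macrophages, was also lower (-2.77 ± 0.55, adjusted p = 0.0398), with 81 of its 338 UMIs in all members from 1 cell. Of the regulatory T cell list, 4 of 14 tested genes were higher and 0 lower, with a median log2 difference of 1.67 against -0.0091 over all tested genes. Ctla4 (1.60, adjusted p = 0.13) and Icos (1.07, adjusted p = 0.13) missed the threshold. Without free R848 tumor 3, 0 genes were called (edgeR, adjusted p of the 14 from 0.495 to 0.511, Tnfrsf4 at 3.62 and Il2ra at 2.23 on the log2 scale), with 47 and 58 genes called when saline tumor 1 or medium R848-BPD tumor 1 was left out.

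**Figure D4:**
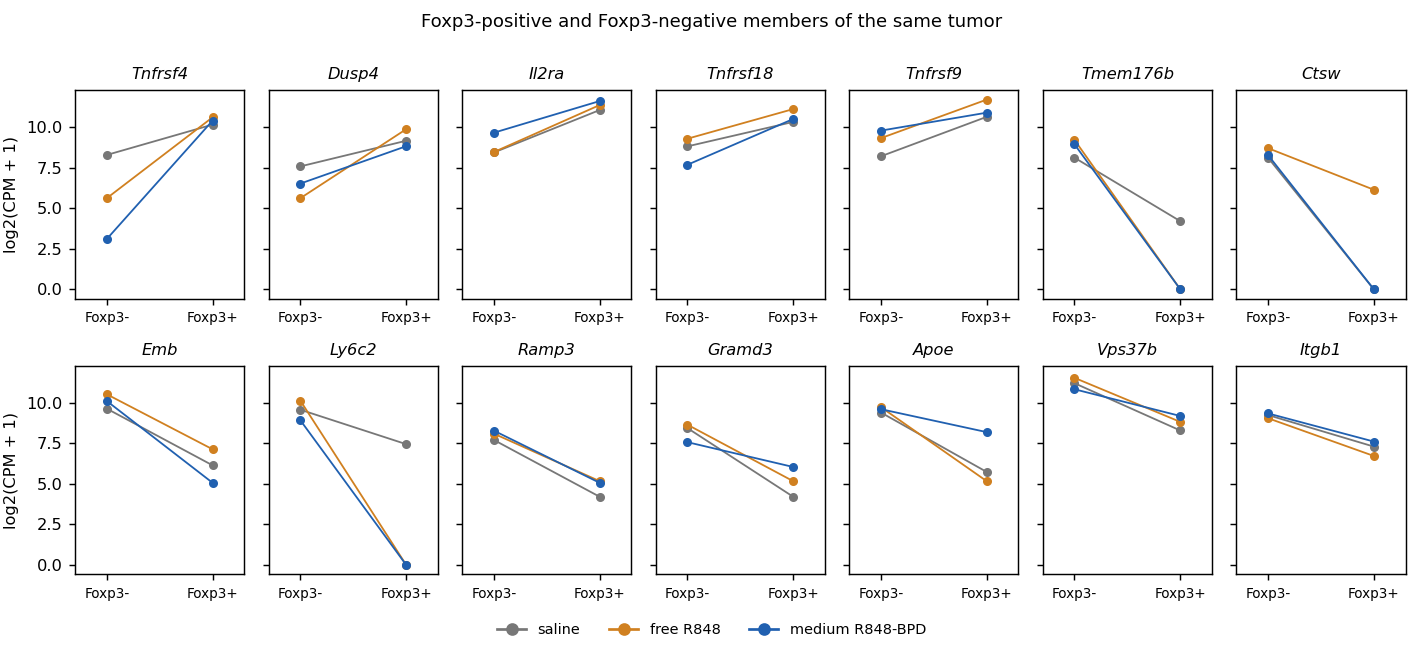
Levels of the 14 genes called between Foxp3-positive and Foxp3-negative CD8-negative T cells, as log2(CPM + 1), in 3 tumors joined by lines and coloured by treatment. The first 5 genes are higher and the other 9 lower in Foxp3-positive cells of each tumor.

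The share of each kind was compared between treatments after every cell had been thinned to 1000 UMIs, which left out 4 of the 152 members. Foxp3-positive cells made up 15.4, 14.3 and 9.52% of members after saline, 12.5, 6.67 and 8% after free R848, and 6.45 and 0% after medium R848-BPD, lowest in the last group. The value of 0 comes from 15 cells and allows up to 20% of cells with a UMI at this depth, which is no limit on cells that express the gene. The means were 13.1 ± 3.12% (SD, n = 3), 9.06 ± 3.06% (n = 3) and 3.23 ± 4.56% (n = 2). The medium R848-BPD tumors lay below all saline tumors, by 9.84 points (exact permutation p = 0.1, two-sided and the lowest possible for 2 against 3 tumors, 0.75 adjusted over 15 comparisons). The difference was -19.3 points at 2000 UMIs per cell and -18.3 points without thinning, both without overlap (exact permutation p = 0.2 each), and -6.19 points with overlap among members with a TCR constant UMI (p = 0.4). At full depth the counts were 11 of 26, 2 of 7 and 4 of 23 after saline, 2 of 8, 4 of 15 and 5 of 26 after free R848, and 5 of 32 and 1 of 15 after medium R848-BPD.

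Cd4-positive cells made up 18.5 ± 7.30% of members after saline, 15.2 ± 19.8% after free R848 and 4.95 ± 2.43% after medium R848-BPD. The medium R848-BPD tumors again lay below all saline tumors (exact permutation p = 0.1, 0.75 adjusted), while the free R848 tumors ran from 0 of 15 cells to 37.5% and spanned both. The 0 allows up to 20% of cells with a UMI at 1000 UMIs per cell, and at full depth 4 of those 15 cells (26.7%) had a Cd4 UMI. Medium R848-BPD and saline tumors overlapped at 2000 UMIs per cell (-13.2 points, exact permutation p = 0.4) and among members with a TCR constant UMI (-9.25 points, p = 0.3). At full depth the Cd4 counts were 16 of 26, 2 of 7 and 6 of 23 after saline, 5 of 8, 4 of 15 and 6 of 26 after free R848, and 6 of 32 and 2 of 15 after medium R848-BPD.

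Tcrg-C-positive cells were at 7.33 ± 7.15%, 13.3 ± 11.5% and 16.2 ± 13.5% after thinning, with overlap between all groups (smallest exact permutation p = 0.5). At full depth, where tumors differed in UMIs per cell, they were 3 of 26, 1 of 7 and 4 of 23 after saline, 0 of 8, 3 of 15 and 7 of 26 after free R848, and 13 of 32 and 4 of 15 after medium R848-BPD. There medium R848-BPD (33.6 ± 9.87%, n = 2) lay above all saline tumors (14.4 ± 2.93%, n = 3), by 19.2 points (exact permutation p = 0.1, not adjusted), and overlapped with free R848. At 2000 UMIs per cell the difference from saline was 9.52 points with overlap (exact permutation p = 0.4). None of the share comparisons at 1000 UMIs per cell held after adjustment. In none of them could the design have gone below 0.1.

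CD8-negative cells were 47.0 ± 21.2% of gated T cells after saline, 38.5 ± 22.97% after free R848 and 58.4 ± 9.62% after medium R848-BPD, and 1.40 ± 0.79%, 1.61 ± 1.14% and 1.79 ± 0.79% of all cells. The groups overlapped in each (exact permutation p from 0.4 to 0.9).

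Expression was compared between treatments on counts summed per tumor over its members, in the 6 tumors with at least 10 members, 2 per group. Saline tumor 2 and free R848 tumor 1 were left out of the fit for their 7 and 8 members, and their values are given beside it for some genes. Where only UMI sums of the fit are printed, overlap with these 2 tumors is not shown. A sum over so few cells changes with the mix of kinds described above, and fewer cells of a kind and less RNA per cell cannot be told apart in it. Of 2493 genes, 10 (0.401%) were called between medium R848-BPD and free R848, all higher after medium R848-BPD. Another 10 (0.401%) were called against saline, 2 higher (0.0802%) and 8 lower (0.321%) after medium R848-BPD. Free R848 differed from saline in 11 genes (0.441%), of which 10 were lower (0.401%) and 1 higher (0.0401%). The 3 comparisons share tumors pairwise.

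MHC class II genes were the clearest difference, low after free R848. H2-Ab1, the class II beta chain, was at 3039 and 1733 CPM in saline tumors 1 and 3, at 54 and 23 CPM in free R848 tumors 2 and 3, and at 163 and 884 CPM in the medium R848-BPD tumors. The 2 tumors outside the fit had 756 CPM (saline) and 89 CPM (free R848). Every saline tumor was above every free R848 tumor, with 456 against 7 UMIs in the tumors of the fit, a ratio of 64.4 (counting interval 31.0 to 161, edgeR adjusted p = 1.91e-05). H2-Eb1 had 195 against 1 UMIs in the tumors of the fit, a ratio of 193 (34.2 to 7657, adjusted p = 3.08e-06), H2-Aa 143 against 2, a ratio of 70.7 (19.2 to 590, adjusted p = 0.000191), and Cd74, the invariant chain that guides class II molecules, 161 against 5 (adjusted p = 1.15e-05). The calls of H2-Ab1, H2-Eb1 and Cd74 held in each of the 16 alternatives. Among these, leaving out doublets removed no member and so repeated the fit.

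The class II UMIs came from few cells. In saline tumor 1, 13 of 26 members had a UMI of H2-Aa, H2-Ab1, H2-Eb1 or Cd74, and 3 of them held 554 of the 723 UMIs. With the highest cell of each tumor left out, the 4 genes together stood, without TMM scaling, at 4650, 386 and 2323 CPM after saline, 109, 71.8 and 47.2 after free R848, and 435 and 442 after medium R848-BPD, and the saline and free R848 tumors still did not overlap. A UMI of these genes was present in 13 of 26, 7 of 7 and 8 of 23 members after saline, and in 3 of 8, 6 of 15 and 5 of 26 after free R848.

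In macrophages of the same tumors, H2-Ab1 was at 1869, 6202 and 1070 CPM after saline and at 2481, 950 and 2024 after free R848, so the groups overlapped. After medium R848-BPD it was at 479 and 772 CPM, and Cd74 at 190 and 262 CPM, below every saline and free R848 tumor for both genes. Macrophages thus had less of both genes than after saline, as the members did, but also less than after free R848, where the members had more H2-Ab1. The dendritic cell list in the members (10 genes with a value) summed to 5490, 1334 and 3262 CPM after saline, 447, 397 and 81 after free R848, and 940 and 2250 after medium R848-BPD, but 3 of its genes are H2-Aa, H2-Ab1 and H2-Eb1 themselves. Its other 7 genes summed to 228, 66.7 and 189 CPM after saline, 239, 322 and 46.4 after free R848, and 374 and 348 after medium R848-BPD, so saline and free R848 overlapped. The macrophage list without Cd74 (13 genes) summed to 3083, 3424 and 8368 CPM after saline, 1909, 1770 and 2286 after free R848, and 3074 and 3267 after medium R848-BPD, and here saline and free R848 did not overlap. Both sums without class II genes were added after the data had been seen. Flt3, a defining dendritic cell gene, had a UMI in 11 of the 152 members. Lyz2 had 133 UMIs after saline and 41 after free R848 in the fit, but 72 of the 82 in saline tumor 1 lay in 1 cell. The part of other cells' RNA in the class II result was not tested.

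Other genes lower after free R848 than after saline were Tyrobp, an adaptor of myeloid and NK cells (61 against 8 UMIs, edgeR adjusted p = 0.00411), Spp1, osteopontin (182 against 12, adjusted p = 0.0194), Lgals3, galectin-3 (117 against 26, adjusted p = 0.0194), and the stress factor gene Atf3 (66 against 11, adjusted p = 0.0194). Fn1, fibronectin, had 46 UMIs after saline and 0 after free R848, so it was at least 15.2-fold higher after saline, counting 3 UMIs over the group as the floor (adjusted p = 0.00687). In Spp1, 96 of the 160 UMIs of saline tumor 3 came from 1 cell, and the call was lost without that tumor (log2 difference -1.55). The Fn1 call was lost without saline tumor 1 or 3 (edgeR adjusted p = 0.0703 and 0.135), where the fitted log2 differences, no bounds against 0 UMIs, were -7.88 and -7.67. Lyz2 (133 against 41 UMIs, adjusted p = 0.0323) was not called without free R848 tumor 2, free R848 tumor 3 or saline tumor 3 (-1.67, -1.86 and -1.67), Lgals3 not without free R848 tumor 2 or saline tumor 3 (-2.03 and -1.49), and Atf3 not without free R848 tumor 3 (-2.56). In macrophages of the tumors in the fit, Spp1 was at 2167 and 4786 CPM after saline and 949 and 613 after free R848. Fn1 was there at 1139 and 717 against 222 and 154 CPM, and Lyz2 at 6797 and 9683 against 3632 and 3080. Saline tumor 2 had 268, 172 and 2550 CPM of these genes, so with it the groups overlapped. For Lgals3 the macrophages overlapped within the fit. The part of other cells' RNA in these calls was not tested.

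Cd163l1 was the gene higher after free R848 than after saline. It was at 26, 0 and 32 CPM after saline, 0, 107 and 754 after free R848, and 277 and 201 after medium R848-BPD. Over the fit it had 75 UMIs against 5 (edgeR adjusted p = 0.0194), 65 of them in 9 cells of free R848 tumor 3. Without that tumor it was not called (log2 difference 1.84), and the call held in 10 of 16 alternatives. It was also lost with only the 2 groups compared, all 8 tumors, no C1q UMI, at least 3 CD3 UMIs, or a TCR constant UMI. Free R848 tumor 1, outside the fit at 0 CPM, overlapped with the saline tumors. Against saline, medium R848-BPD differed by 3.05 ± 0.81 on the log2 scale, without a call (adjusted p = 0.157).

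After medium R848-BPD, Ccl5, a chemokine that draws T cells and monocytes, stood at 856 and 1875 CPM, against 123, 156 and 205 after saline and 776, 311 and 360 after free R848. It lay above all saline tumors, with a log2 difference of 3.07 ± 0.44 (edgeR adjusted p = 0.00086, 2.46 to 3.52 with each tumor left out). Against free R848 the difference was 2.03 ± 0.40 (adjusted p = 0.0258), lost without medium R848-BPD tumor 2 (1.40). Of the 142 UMIs in medium R848-BPD tumor 1, 93 came from 1 cell, and 57 of the 140 in tumor 2. When members with any C1q UMI were left out, neither call held (2.48 against saline, edgeR adjusted p = 0.115, and 1.87 against free R848, adjusted p = 0.4). Ccl5 was also higher in macrophages, at 1022 and 860 CPM after medium R848-BPD and 51 to 141 after saline.

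Cd4 was at 84 and 40 CPM after medium R848-BPD and at 404, 133 and 284 after saline, a log2 difference of -2.35 ± 0.45 (edgeR adjusted p = 0.02). The call was lost without saline tumor 1 or medium R848-BPD tumor 2 (-2.05 and -2.01), and also when all 8 tumors entered (-2.08, adjusted p = 0.211). Foxp3 was at 66 and 13 CPM against 281, 67 and 126 CPM, -2.15 ± 0.59, and was not called (adjusted p = 0.195). S100a4, a calcium-binding protein of memory T and myeloid cells, was at 241 and 13 CPM against 1107, 689 and 583 (-2.52 ± 0.54, adjusted p = 0.0354). Its call was lost without medium R848-BPD tumor 2, where it had 1 UMI in 15 cells (-1.80). Macrophages also had less S100a4, 34 and 31 CPM after medium R848-BPD against 142 to 684 after saline.

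Cd74 (161 against 33 UMIs, edgeR adjusted p = 0.00238) and H2-Ab1 (456 against 93, adjusted p = 0.0442) were lower after medium R848-BPD than after saline in the tumors of the fit. With saline tumor 2, outside the fit, the H2-Ab1 levels overlapped (756 CPM there against 884 CPM in medium R848-BPD tumor 2), as did the 4 class II genes together once the highest cell was left out (386 CPM against 435 and 442, without TMM scaling). The H2-Ab1 call held in 10 of 16 alternatives (edgeR or DESeq2 adjusted p up to 1, the highest with DESeq2) and that of Cd74 in 14. H2-Aa (-1.66 ± 0.51, edgeR adjusted p = 0.28) and H2-Eb1 (-1.29 ± 0.39, adjusted p = 0.272) were not called. Lyz2 (133 against 17, adjusted p = 0.000355), Spp1 (182 against 5, adjusted p = 0.00429), Fn1 (46 against 3, a ratio of 20.2 with a counting interval of 6.48 to 101, adjusted p = 0.0266) and Rgs16, a regulator of G-protein signalling in activated T cells (52 against 10, adjusted p = 0.0263), were lower as well. Spp1, Fn1 and Rgs16 were not called without saline tumor 3, Fn1 also not without saline tumor 1 and H2-Ab1 not without medium R848-BPD tumor 1 (log2 differences in those fits of -3.23 for Spp1, -4.20 and -4.54 for Fn1, -1.91 for Rgs16 and -1.47 for H2-Ab1). Il4i1, an enzyme that breaks down amino acids, was higher, with 65 UMIs in 10 cells of the 2 medium R848-BPD tumors together against 5 UMIs after saline (adjusted p = 0.0354). That call was lost without either medium R848-BPD tumor or without saline tumor 1 (2.12 to 3.37). In macrophages Spp1 was at 2167, 268 and 4786 CPM after saline and at 308 and 178 after medium R848-BPD. Fn1 was there at 1139, 172 and 717 against 71.9 and 106 CPM, and Lyz2 at 6797, 2550 and 9683 against 3463 and 3486. Saline tumor 2, outside the fit, thus overlapped for Spp1 and Lyz2. In MC38 cells the groups overlapped for Spp1 and Fn1. The part of other cells' RNA in these 3 calls was not tested.

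Between medium R848-BPD and free R848, 3 class II genes were among those higher. H2-Eb1 had 94 against 1 UMIs, a ratio of 70.7 (counting interval 12.4 to 2823, edgeR adjusted p = 0.000286), H2-Ab1 93 against 7 (adjusted p = 0.0258), H2-Aa 49 against 2, a ratio of 18.4 (4.84 to 157, adjusted p = 0.0335), Tyrobp 58 against 8 (adjusted p = 0.0335), Il4i1 65 against 1, a ratio of 48.9 (8.47 to 1961, adjusted p = 0.00685), Lgals3 181 against 26 (adjusted p = 0.0335), Ftl1, ferritin light chain, 95 against 18 (adjusted p = 0.0365) and Tbc1d4 68 against 6 (adjusted p = 0.0365). Few cells carried the class II UMIs here too. A single cell held 28 of the 50 H2-Eb1 UMIs in medium R848-BPD tumor 1 and another 28 of the 44 in tumor 2, where 1 cell also held 58 of the 66 of H2-Ab1 and 25 of the 32 of H2-Aa. With the highest cell of each tumor left out, the 4 class II genes together were at 435 and 442 CPM against 47.2 to 109 after free R848, without overlap and without a test. For Lgals3, 116 of the 140 UMIs in medium R848-BPD tumor 1 came from 1 cell, and for Tbc1d4 29 of the 33. Free R848 tumor 1, outside the fit, had 447 CPM of Tbc1d4, within the range of the medium R848-BPD tumors (199 and 469 CPM). H2-Eb1 and Il4i1 kept their call with each tumor left out, while the calls of H2-Aa, H2-Ab1, Tbc1d4, Tyrobp and Ftl1 were lost without medium R848-BPD tumor 2 and those of H2-Aa, Tbc1d4, Tyrobp and Ftl1 without free R848 tumor 3. Lgals3 was not called without free R848 tumor 2 or medium R848-BPD tumor 1, and Ftl1 not without free R848 tumor 2 (log2 differences in the fits that lost the call of 3.12 and 3.45 for H2-Aa, 2.08 for H2-Ab1, 2.32 and 2.59 for Tbc1d4, 2.24 and 2.31 for Tyrobp, 1.76 to 2.15 for Ftl1, and 1.90 and 1.96 for Lgals3). With DESeq2, 0 genes passed in this comparison (68 at an unadjusted p of 0.05).

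**Figure D5:**
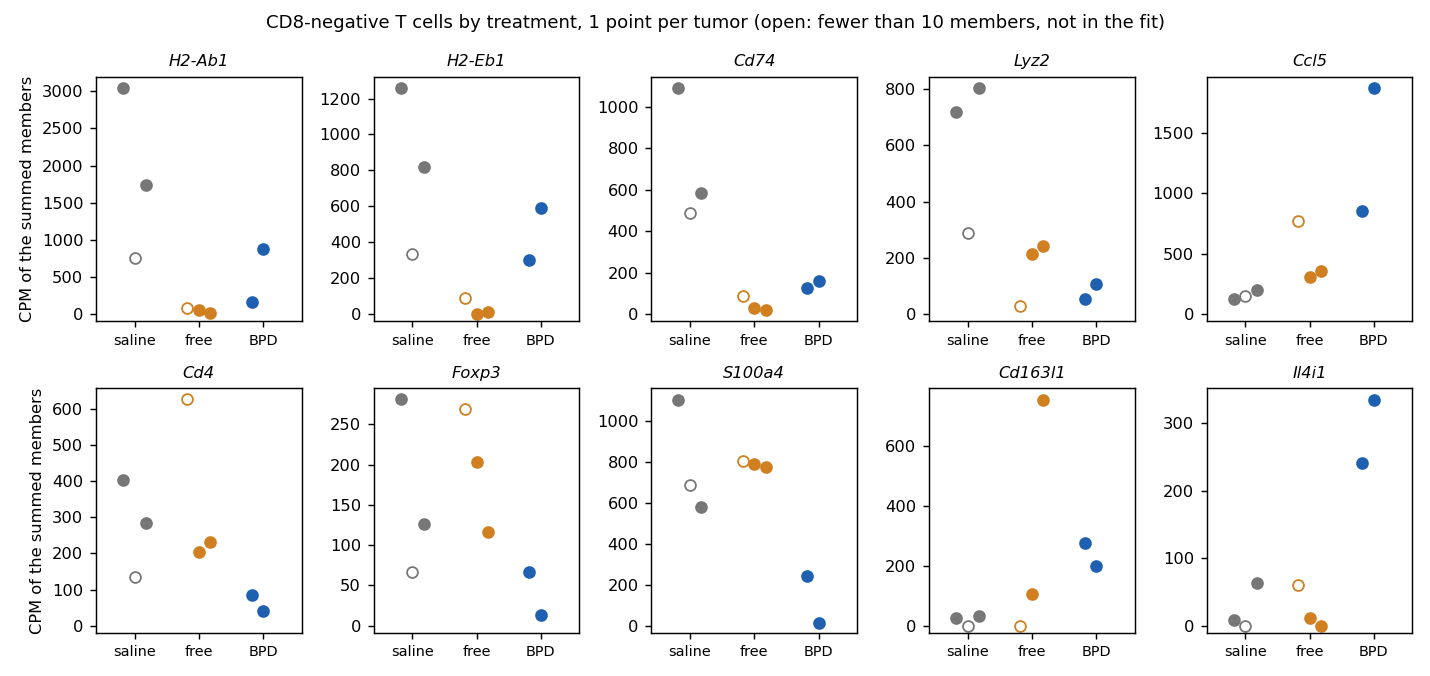
CPM of 10 genes in the summed CD8-negative T cells of each tumor by treatment (x axis); open points are the 2 tumors with fewer than 10 members. Class II genes are lowest after free R848, Ccl5 and Il4i1 highest and Cd4 and S100a4 lowest after medium R848-BPD.

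Calls between treatments were made in 0.401 to 0.441% of all genes, so lists of this size would hold about no call at that rate, and their counts say nothing particular about them. None of the 18 tested genes of the regulatory T cell list was called in any of the 3 comparisons, with median log2 differences of -0.75 (medium R848-BPD against free R848), -0.33 (against saline) and 0.18 (free R848 against saline). Tnfrsf4, for example, differed by -1.57 ± 0.48 between medium R848-BPD and saline (edgeR adjusted p = 0.28) and Tnfrsf18 by -1.08 ± 0.39 (adjusted p = 0.536). Of the naive and memory list 0 of 7 were called, with Tcf7, a factor of naive and memory T cells, at 2.01 ± 0.49 (adjusted p = 0.088). The type I interferon list, which R848 can induce through innate cells, had 35 tested genes, 0 calls and medians of -0.16, -0.08 and -0.05. Isg15 differed by 0.27 ± 0.50 between medium R848-BPD and saline. The interferon-gamma list (24 tested) and the cell cycle list (20 tested) had 0 calls too. In simulated counts of this design, 44.2% of 4-fold and 4.55% of 2-fold changes were recovered between medium R848-BPD and saline, so smaller changes were mostly not detectable. Every gene was simulated with the same spread, so these rates do not cover sums that a single cell dominates.

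The responses of CD8-negative and CD8 T cells were set side by side in the 5 tumors with at least 10 cells of both, of which 1 had received medium R848-BPD. Of 3925 genes, 6 (0.153%) responded differently to free R848 against saline, all with a more negative difference in CD8-negative T cells, and 1 (0.0255%) to medium R848-BPD against free R848. The medium R848-BPD arm was 1 tumor, assumed to vary like the other groups, so its calls describe that library. Between medium R848-BPD and saline there were 0 (edgeR, 89 at an unadjusted p of 0.05). The 3 class II genes H2-Eb1, H2-Ab1 and H2-Aa were among the 6 (edgeR adjusted p from 0.00191 to 0.0199). In CD8 T cells H2-Ab1 was at 3588 and 193 CPM after saline and 1414 and 529 after free R848, so the groups overlapped there. Several sums were at or near 0, so the fitted values give no measure of size. The 3 differences in response were not called without medium R848-BPD tumor 1 (adjusted p from 0.0668 to 0.139, log2 differences from -6.66 to -5.15).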

How the data were processed

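For each of 8 tumors the authors deposited a table of raw UMI counts, genes by barcodes, not normalized; the submitters' processing notes name mm10 and bcl2fastq, and the aligner and annotation are not given in the sources used here. Positions come from GENCODE vM21 (GRCm38). Members, lists and tests were chosen with earlier results of these data known.

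Cells with over 400 and under 10000 genes, under 50000 UMIs and at most 15% mitochondrial UMIs were kept, 9886 of 10791 barcodes, from 5867590 to 12422614 UMIs per tumor. Scrublet (expected rate 0.05) marked doublets, which were kept. Counts were summed per tumor and tested with edgeR 4.0.16 (TMM, filterByExpr, quasi-likelihood F test, Benjamini-Hochberg adjustment, all 3 groups in the treatment fit) in R 4.3.3; Python 3.11.15 with scipy 1.17.1 served for the rest. Standard errors are the log2 difference over the square root of F. The numbered tumors of the labels, loaded per mouse, are the replicates. Saa3, Flt3, Blk and the genes describing kinds outside the lists were picked with their values in view. Printed CPM were scaled by TMM over all 16 sums of members and CD8 T cells, and separately for the Foxp3 split; those of macrophages were not. The genes named were list members and, in each direction, the 10 largest changes past the threshold whose average log2 CPM reached 5, with groups apart (treatments) or the direction shared by all tumors (markers). Shares used 1000 UMIs per cell and two-sided exact permutation tests.

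The design named Trdc; the alternative it gave, Tcrg-C1, Tcrg-C2 or Tcrg-C4, was used, and its split reached 5 cells in only 2 tumors, so no test was made. Of the 24 genes of the gamma-delta and type 17 list, 22 were matched. DESeq2 1.42.0, RLE scaling, an absent filter, other gates, depths and minimums, blocking on replicate and leaving out tumors were the alternatives. In simulated counts, 98.7% of 4-fold and 47.0% of 2-fold changes between CD8-negative and CD8 T cells were recovered, with 5 false calls. Both simulations gave every gene the same spread and scored only genes that passed the filter. They held no sums dominated by a single cell, so their rates need not hold for the real sums. Same-numbered tumors were not treated as pairs in the reported fits. Of the 7 same-numbered pairs, 2 had a correlation of deviations over 0.1, and pairs with other numbers reached at most 0.0449. Some results are not reported here.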

Additional observations from a re-analysis of the deposited data

Results flagged for a closer look

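The response to treatment was compared between CD8-negative and CD8 T cells with a class-by-treatment term, in 5 tumors of which 1 had received medium R848-BPD. Each gene below had a difference in response past an edgeR adjusted p of 0.05, of 3925 genes tested (0.153% between free R848 and saline, 0.0255% between medium R848-BPD and free R848). Several sums were at 0, so the fitted values depend on the prior count and are no measure of size.

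Between free R848 and saline, Gzmd differed by -15.42 on the log2 scale. It was at 9 and 2159 CPM in CD8-negative T cells of saline tumors 1 and 3 and 0 after free R848, against 0 after saline and 7 and 163 CPM after free R848 in CD8 T cells, and 137 of its 152 UMIs came from 1 cell. Gzme differed by -11.20, with 69 of 74 UMIs from that tumor. Ifng, interferon-gamma, differed by -8.35, with 88 and 95 CPM against 0 and 23 CPM in CD8-negative T cells, and 21 and 21 against 14 and 1970 CPM in CD8 T cells, where 1 cell held 199 of 321 UMIs. H2-Eb1 differed by -6.69, H2-Ab1 by -5.69 and H2-Aa by -5.15. H2-Ab1 was at 3588 and 193 CPM after saline and 1414 and 529 after free R848 in CD8 T cells, where the groups overlapped.

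Between medium R848-BPD and free R848, Saa3 differed by -9.56, with 96 CPM in CD8-negative and 1941 CPM in CD8 T cells of medium R848-BPD tumor 1, where 1 cell held 299 of the 372 UMIs of all CD8 T cells. The medium R848-BPD arm was this 1 tumor, assumed to vary like the other groups, so the call describes 1 library and mostly 1 cell, not the treatment. Between medium R848-BPD and saline 0 genes passed (edgeR, 89 at an unadjusted p of 0.05, and 0 with DESeq2).

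The call of Gzmd was lost without saline tumor 3 (-9.52) or free R848 tumor 3 (-12.16), and that of Gzme without those (-2.62 and -4.92) or medium R848-BPD tumor 1 (-10.98). Ifng was not called without free R848 tumor 3 (-5.79), H2-Eb1, H2-Ab1 and H2-Aa not without medium R848-BPD tumor 1 (-6.66, -5.70 and -5.15), and Saa3 not without free R848 tumor 2 (-4.32). With all tumors of at least 5 cells of both classes, chosen after seeing the data, 1 gene was called between free R848 and saline and 0 between medium R848-BPD and free R848.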

How the results depend on the processing

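Of 229 alternative values of counts and shares, 146 stayed near the reported one or on its side, 65 counts moved by over 1.5 times and 18 share differences changed sign. Of 897 for named genes, 0 changed sign and 226 lost the call. The causes were not tested, and sums of few cells (15 to 32 members per tumor between treatments, 5 to 27 in the Foxp3 split) limit the values. Leaving out doublets removed no member, so between treatments and in the Foxp3 split this alternative repeated the reported fit and could not change it.

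Genes called between medium R848-BPD and free R848 (10) numbered 0 with DESeq2 (68 at an unadjusted p of 0.05), 38 without the filter, 2 with no C1q UMI, 3 with at least 3 CD3 UMIs and 5 with a TCR constant UMI, and 7 to 45 with a tumor left out. Between medium R848-BPD and saline (10) the counts were 3, 43, 3, 2 and 5, 5 with all 8 tumors, and 18 to 38 with a tumor left out. For free R848 against saline (11) they were 24 without the filter, 4 with no C1q UMI, 3 with at least 3 CD3 UMIs, 7 with only those 2 groups, 5 with a TCR constant UMI, and 8 to 25 with a tumor left out. With the replicate block they were 33, 17 and 11. Correlations of deviations ran from -0.0256 to 0.159 for same-numbered tumors and from -0.144 to 0.0449 for the other pairs. Whether the numbers pair the tumors was not tested.

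Against CD8 T cells (16), DESeq2 called 9, no filter 83, cells of at least 3000 UMIs 5, at least 3 CD8 UMIs 9, a TCR constant UMI 10, tumors of at least 5 cells 28, and left-out tumors 10 to 25. For the Foxp3 split (14) the counts were 51 without the filter, 43 with no C1q UMI, 24 with a TCR constant UMI, 31 with at least 2 cells of both kinds, and 0 to 58 with a tumor left out; at least 3 CD3 UMIs left too few tumors and was not run. Differences in response gave, for medium R848-BPD against free R848 (1), 0 with DESeq2, 3 without the filter, 0 without doublets, 2 with a TCR constant UMI, 0 with at least 5 cells and 2 to 36 with a tumor left out. For medium R848-BPD against saline (0) they gave 4 without the filter and 1 to 8 with a tumor left out. For free R848 against saline (6) they gave 3 with DESeq2, 3 without doublets, 1 with at least 5 cells and 1 to 47 with a tumor left out. The TCR constant and minimum-cell alternatives, and all for the response, were chosen after seeing the data.

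Of shares, free R848 minus saline turned to 1.63 points for Foxp3 with a TCR constant UMI and to 10.7 for Cd4 at 2000 UMIs. With a tumor left out, in the order medium R848-BPD minus free R848, minus saline, and free R848 minus saline, differences ran for Foxp3 from -9.06 to -2.60, -13.1 to -6.61 and -5.78 to -2.81, for Cd4 from -17.8 to 0.946, -15.7 to -9.34 and -14.5 to 4.25, and for Tcrg-C from -6.67 to 12.5, -0.659 to 18.5 and 2.34 to 12.7. For gated T cells they ran from 8.71 to 31.7, -0.737 to 18.3 and -20.7 to 2.74, and for all cells from -0.387 to 0.826, -0.172 to 0.951 and -0.436 to 0.629.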
